A study of Mus musculus with 6 samples.

Results

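The region described here is the stretch of mouse chromosome 11 that lies 20 to 143 kb upstream of the Ikzf1 bait and surrounds the noncoding gene Gm11998. Its members are the DpnII fragments from 11440141 to 11563708 (mm9), taken by the distance of their midpoint from the bait at 11583520. They number 362 of the 295446 fragments of chromosome 11 in this library, and of 916352 fragments over the 3 bait chromosomes of the series. The region was chosen by the read counts of this same library and their running mean, which is highest here beyond the bait surroundings, so the height of the region is given as a description and not as a test. At the far border the outermost member held 6631 reads and its neighbour outside 2090. At the bait border the last member held 2962 reads and its neighbour outside 230.

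The library came from CD4+/CD8+ (double-positive, DP) thymocytes of the strain c57/Bl6, sorted with antibodies to CD4 and CD8a from thymus at 4 weeks of age and fixed with 2% formaldehyde for 10 min. It is the only Ikzf1 library among 6 libraries from 3 baits, and the number of mice behind it is not given in the sources used here. The labels give 0.4% SDS for the nuclei, while the Methods describe a stronger and hotter SDS step for thymocytes. 4C counts hold no expression values, so the sorted cell type could not be checked against markers. With 1 library there is no replicate error and no p value for anything below.

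In 4C, fixed chromatin is cut with DpnII and ligated, so that fragments close to the bait in the nucleus become joined to it. The joined DNA is cut again with Csp6I, circularized, amplified from the bait and sequenced, and each read is counted on the fragment next to the bait in the circle. Contacts fall off with distance along the chromosome, and a distant element that meets the promoter often rises from that slope as a peak. Ikzf1 encodes Ikaros, a zinc finger transcription factor of lymphocyte development, and its regulation by several distal elements is well known. Deposited counts hold PCR duplicates, while the exact intervals below treat reads or fragments as independent draws. Intervals on reads are therefore too narrow. Those on shares of fragments describe a fixed set of fragments, which are not replicates. Neither kind covers variation between libraries.

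The sequences that carry the contacts are the ends of the fragments, since a read begins at a GATC site and, per the labels of this library, 25 nt of it remain after the bait sequence is removed. The leading fragments of the tallest peak, over Gm11998, and of the peak nearest the bait, within the lincRNA gene Gm11999, are shown with GATC in capitals.
Gm11998 peak, fragment with 13965 reads, left end, chr11:11461147-11461171, plus strand: GATCttatttccttttcatggcagc
Gm11998 peak, the same fragment, right end, chr11:11461737-11461761, minus strand: GATCaagccagtgagaacacatgga
Gm11998 peak, fragment with 10745 reads, left end, chr11:11464550-11464574, plus strand: GATCtagttttctcctttttagctg
Gm11998 peak, the same fragment, right end, chr11:11465190-11465214, minus strand: GATCtcctctgctgctcaacacaga
Gm11999 peak, fragment with 9548 reads, left end, chr11:11548995-11549019, plus strand: GATCtcggttacatcaatcaggata
Gm11999 peak, fragment with 7831 reads, left end, chr11:11547477-11547501, plus strand: GATCtaagaacaataaacaaactgt
The fragment with 9548 reads lies between neighbours with 98 and 41. Of these 4 fragments 3 have both 25 nt ends at a single GATC site of mm9, and the one with 9548 reads has 1 such end. The deposited counts add the ends of a fragment together, so which end gave the reads is unknown.

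The library held 2314166 reads, within a range of 1847598 to 6447786 over the 6 libraries, and 22.1% of them lay in the upstream region (510346 reads, exact Clopper-Pearson 95% interval 22.0% to 22.1%). The mean was 1410 reads per fragment, the median 395 and the highest 13965. Reads were found on 256 of the 362 fragments, or 70.7% (exact 95% interval 65.7% to 75.4%). No single fragment dominated the region. The highest held 2.74% of its reads, the 10 highest 19.2%, and 37 fragments were needed to reach 50% of the reads.

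**Figure D1:**
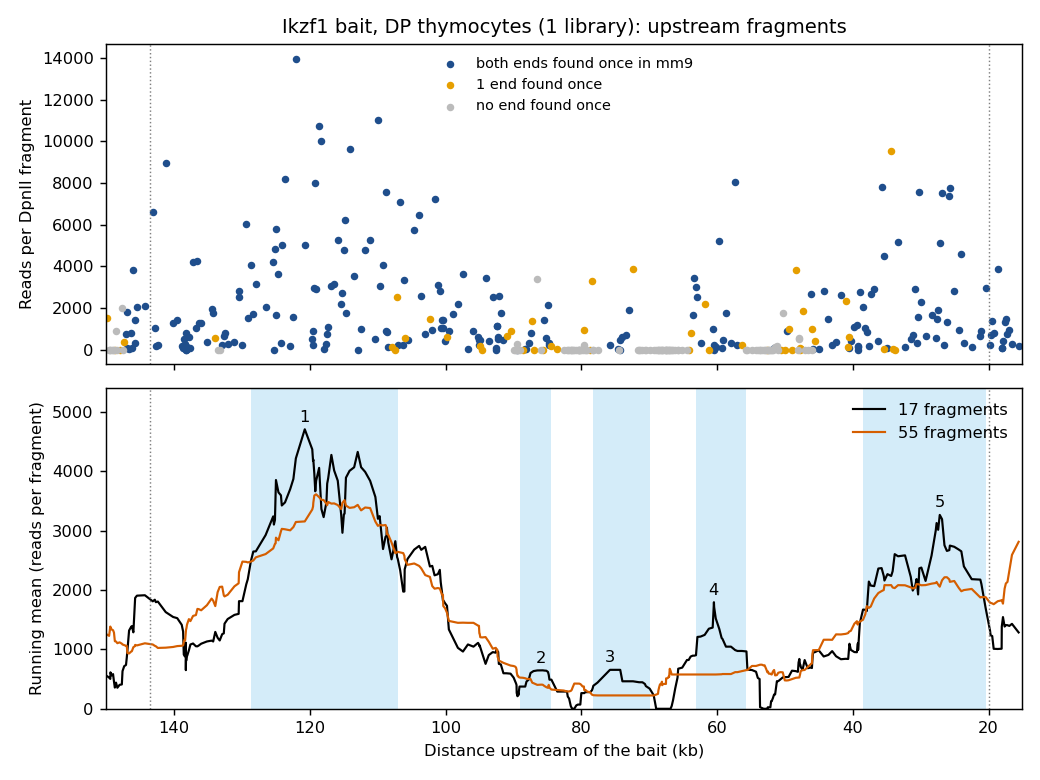
Reads per DpnII fragment (upper panel, y-axis) and running means over 17 and 55 fragments (lower panel, y-axis, reads per fragment) by distance upstream of the Ikzf1 bait (x-axis, kb) in 1 DP library. Colours in the upper panel give how many 25 nt ends of a fragment occur once among GATC sites of mm9, blue bands are the extents of the 5 contact peaks, and dotted lines the borders of the region; the broad peak 1 reaches 4709 and peak 5 reaches 3267 reads per fragment at 17 fragments.

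A contact peak was defined as the highest running mean over 17 fragments within 17 fragments on each side that also stood at least 1.5 times above the higher of its flanking valleys, with an extent down to 0.5 of its top. The region held 5 such peaks, numbered from the far end. Peak 1 overlaps most of Gm11998, the tops of peaks 2 to 4 fall in the protein-coding gene 4930512M02Rik, and peak 5 lies in Gm11999. Tops stood at 4709 (121 kb upstream), 648 (85.9 kb), 656 (75.8 kb), 1796 (60.5 kb) and 3267 reads per fragment (27.2 kb). Peak 1 held 37.0% and peak 5 held 20.1% of the reads of the region, against 2.15%, 1.54% and 5.07% for peaks 2, 3 and 4. The broad peaks thus lie at the ends of the region and the narrow ones between them.

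Peak 1, over Gm11998, covered 22.0 kb from 11454510 to 11476516, with 55 fragments and 188661 reads. All but 3 of its fragments had a read, and the median fragment held 2917 reads. The mean was 3430 reads per fragment, against 1070 in the 10 kb on the far side and 2389.5 in the 10 kb on the side of the bait. This is 3.21 times the far flank, 1.44 times the near flank and 2.11 times both together. The peak therefore rises steeply at its far edge and runs out slowly toward the bait, and the last exon of Gm11998 lies beyond its extent on that side. With flanks of 20 kb the height over flanks was 2.69, and with flanks of 5 kb, which still lie on the slope, 1.70.

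Within peak 1 the running mean at 17 fragments had 3 tops, each the highest within 8 fragments on each side. They reached 4709 reads per fragment at 120.8 kb, 4278 at 116.8 kb and 4329 at 113.0 kb. The running mean dropped to 3230 between the first and the second, or 0.755 of the lower top, and to 2966 between the second and the third, or 0.693. None of these drops reaches the 1.5-fold separation asked of a peak, so the tops were kept as 1 peak. At 55 fragments they were no longer apart, with a single top of 3614 at 119.1 kb.

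Gm11998 is annotated by GENCODE vM1 from 11457424 to 11479463 on the plus strand, with 3 exons. Over its 57 fragments the mean was 3422 reads per fragment, with 54 fragments detected, and the gene held 38.2% of the reads of the region. The fragment with exon 1 held 2079 reads, that with exon 2 4086 and that with exon 3 5727. The 3 fragments with the most reads in peak 1 (13965, 11040 and 10745) are all intronic. Of the 15 fragments with the most reads in the whole region, 8 lie in Gm11998, and the fragment at the start of the gene lies below the median fragment of the gene (2917 reads).

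The peak around Gm11998 did not rest on single fragments. Its highest fragment held 7.40% of the reads of the extent and the 3 highest 18.9%. Without the highest fragment the mean fell from 3430 to 3235, and without the 3 highest to 2941, which is 1.81 times the flanks. When each of the 55 fragments was left out in turn, the top stood between 4329 and 4797 reads per fragment. The peak met the definition every time. Its flanking valleys were only 3.12 and 0 reads per fragment, so meeting the definition says little here. The place of the top was not fixed. It moved among 3 positions from 11461451 to 11470567, since without the fragment of 13965 reads the highest running mean lies at 113.0 kb. Odd and even fragments of the extent, taken separately, had means of 3342 and 3522.

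Peak 5, in the part of Gm11999 toward its 3′ end, covered 18.9 kb from 11544802 to 11563708. All of its 42 fragments had a read, with a mean of 2442 and a median of 1420 reads per fragment. The mean stood at 2.82 times the far flank (865) and 1.88 times the near flank (1298). The height over both flanks was 2.32 with 10 kb, 2.75 with 5 kb and 1.00 with 20 kb, where the wider flank reaches to the bait itself. Its near edge is the bait border of the region, where the running mean was 1694 at the last member and 1317 at the first fragment outside. The lowest running mean between the top of peak 5 and the higher values beside the bait, outside the region, was 981. Its highest fragment held 9.31% of its reads, and the peak met the definition without any 1 of its fragments, with tops from 2831 to 3274.

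Gm11999 is a lincRNA gene on the minus strand (11542206 to 11585403) that begins 1.88 kb past the bait, so that the bait itself lies in it. Of its 109 fragments 53 fall in the region, all with reads and with a mean of 2105 per fragment. The fragments overlapping its exon 3 held 1554, 7584 and 2294 reads, and the fragment with the last exon 2354. The high value of 7584 belongs to a fragment of 20 bp that lies wholly inside the exon.

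**Figure D2:**
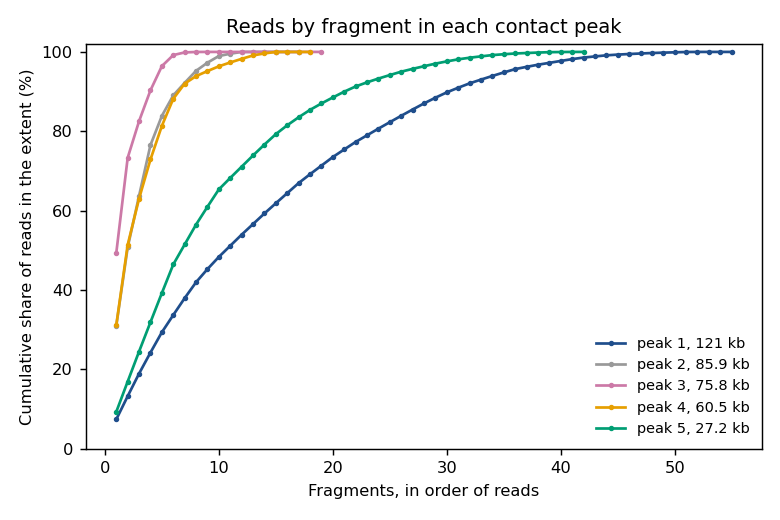
Cumulative share of the reads of a peak's extent (y-axis, percent) over its fragments in order of reads (x-axis), with 1 line per contact peak and its distance upstream of the bait. The 3 highest fragments hold 18.9% of the reads in peak 1 and 24.5% in peak 5, but 63.7%, 82.6% and 63.0% in peaks 2, 3 and 4.

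The 3 peaks within 4930512M02Rik were narrow and carried by few fragments. Peak 4, at 60.5 kb, had 18 fragments, of which that with 8060 reads gave 31.2% and the 3 highest 63.0% of the reads. The median fragment held 318.5 reads, and the neighbours of the highest held 327 and 234. The fragment with the second highest count (5230) overlaps an exon of one of the 2 annotated transcripts of the gene, from 11523714 to 11523927. With each fragment left out in turn, the top of peak 4 ranged from 1368 to 1842, and it fell to 910 without the 3 highest. Peak 4 met the definition each time, as did peak 3 for all of its 19 fragments. The valleys beside peak 4 were 0 and 0.118 and those beside peak 3 were 0, so these outcomes say little. In peaks 2 and 3 the highest fragments were 3405 of 10987 reads and 3887 of 7877 reads. The ends of the fragment with 3405 reads occur at 2158 and 2554 GATC sites of the genome, so the origin of its reads is uncertain. With flanks of 10 kb, peak 2 stood at 1.30 times both flanks together, 0.787 times the far and 4.17 times the near flank. Peak 3 stood at 1.07 times both flanks together. With flanks of 5 kb these heights were 1.89 and 4.62, and with 20 kb 0.845 and 0.820. Peak 2 was lost when any of 4 of its 17 fragments was left out, and the median fragment of peak 3 held 0 reads.

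4930512M02Rik spans 11489226 to 11527838 on the minus strand and had the lowest mean of the 3 genes of the region. Its 131 fragments had a mean of 548 reads and a median of 0, with 58 detected. Of these fragments 69 lack a 25 nt end that occurs once in mm9, and the mean over the others was 1094. The 2 fragments overlapping its 5′ exon held 224 and 0 reads, and the fragment with the last exon held 3449. The fragment with 0 reads holds the start of the gene and lacks a 25 nt end that occurs once. Its 0 can therefore not be read as a low contact. Fragments of the region outside any annotated gene, 121 in all, had a mean of 1091 reads, or 1416 without the 30 that lack such an end. Ordered by mean reads per fragment, Gm11998 was highest, followed by Gm11999, the intergenic fragments and 4930512M02Rik, and the order was the same without those fragments, of which Gm11998 and Gm11999 have none.

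Many fragments between 40 and 95 kb could not be read unambiguously from 25 nt. A fragment was counted as lacking a unique end where neither of its 25 nt ends occurs only once among all GATC sites of mm9. This held for 99 of the 362 fragments of the region (27.3%), against 4 of 275 (1.45%) in the mirror region downstream. The share was 17.3% from the far border to 300 kb upstream, 22.6% within 1.5 Mb of the bait and 10.7% over chromosome 11. Of the 99, 97 lie between 40 and 95 kb upstream, limits chosen after the values were seen. Only 11 of the 99 had a read, against 33 of 45 fragments with 1 unique end and 212 of 218 (97.2%) with 2. Of the 106 fragments without a read, 88 lacked a unique end. How reads with several matches were treated in the mapping is not given in the sources used here.

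Examples of such ends come from fragments without a read on either side of peak 2. Both also hold a further GATC inside the 25 nt.
End at chr11:11494228-11494252, plus strand, found at 19359 GATC sites: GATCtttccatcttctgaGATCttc
End at chr11:11503207-11503231, plus strand, found at 19779 GATC sites: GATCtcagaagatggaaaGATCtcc
In the Gm11998 and Gm11999 peaks no fragment lacked a unique end.

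The valleys between the small peaks coincide with these fragments. The region held 3 runs of at least 10 neighbouring fragments without a read, of 3.28, 7.73 and 1.49 kb from first to last base. By the midpoints of their outer fragments they lay at 79.8 to 82.6 kb, 64.2 to 71.7 kb and 51.8 to 53.0 kb. They comprised 17, 35 and 10 fragments, of which 17, 34 and 9 lacked a unique end. With only the fragments that have a unique end, the valley on the bait side of peak 1 rose from 0 to 501 reads per fragment, and peaks 2 and 3 were no longer found. Peak 4 was still found, with its top unchanged at 1796, but its flanking valleys rose from 0 and 0.118 to 501 and 709. Its height over flanks dropped from 4.46 to 1.39, and to 0.959 with only fragments that have both ends unique. Peaks 1 and 5 kept their tops of 4709 and 3267, at 9.40 and 3.24 times their higher valley.

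**Figure D3:**
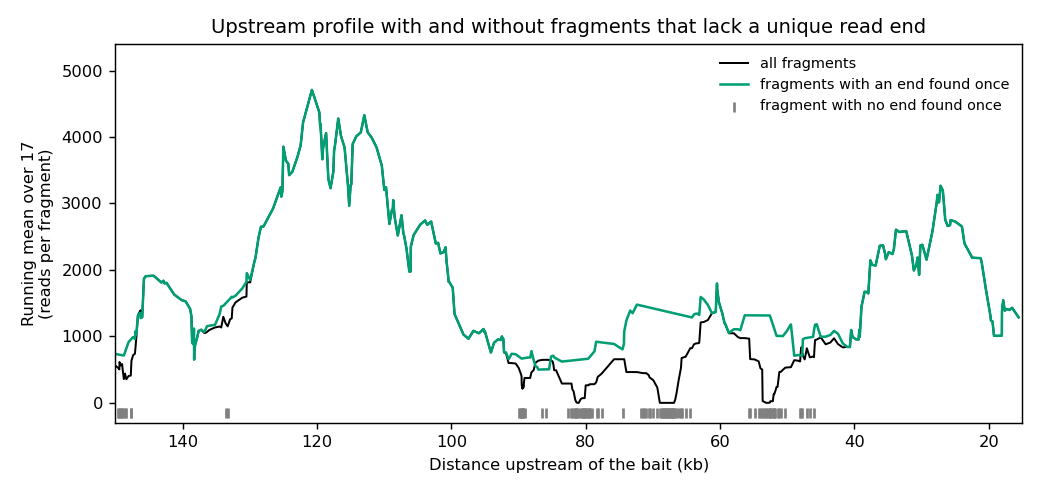
Running mean over 17 fragments (y-axis, reads per fragment) by distance upstream of the bait (x-axis, kb) over all fragments and over those with a 25 nt end that occurs once among GATC sites of mm9; grey ticks mark fragments without such an end. The lines coincide over peaks 1 and 5 and part between them, where the line of all fragments falls to 0.118 or lower in 3 places and the other stays at or above 501.

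Some of the highest counts stood on very short fragments. Of the 15 fragments with the most reads, 5 were shorter than the 25 nt read, so that a read starting in them must run into or across the next DpnII site. In the region 28 fragments were shorter than 25 bp and held 11.1% of the reads, against 3.29% in the mirror region and 5.07% within 1.5 Mb of the bait. The 3 with the most reads, shown on the plus strand with 10 bases on each side and the GATC sites in capitals, are all in Gm11998.
Fragment of 14 bp with 11040 reads, chr11:11473529-11473566: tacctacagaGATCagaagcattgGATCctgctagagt
Fragment of 7 bp with 9996 reads, chr11:11465201-11465231: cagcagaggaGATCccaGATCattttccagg
Fragment of 24 bp with 8018 reads, chr11:11464292-11464339: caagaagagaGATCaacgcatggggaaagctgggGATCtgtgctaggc
The neighbours of the first held 528 and 3042 reads, those of the 7 bp fragment 10745 and 44, and those of the third 2966 and 2917. Fragments under 25 bp gave 20.9% of the reads of peak 1 and 15.0% of those of peak 5. Without them the top of peak 1 dropped from 4709 to 3866 and moved to 113.5 kb, while the mean of the region stood at 1.36 times that of its mirror instead of 1.44.

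Reads were also compared between fragments with and without a Csp6I site (GTAC), the second cut of the protocol. In the mirror region fragments with a site averaged 1473 reads and those without 559. Within 1.5 Mb of the bait the means were 322 and 136. In peak 1 they were 3558 for 28 fragments with a site and 3298 for the other 27. In peak 5 they were 2550 and 2334. In peaks 2, 3 and 4 fragments with a site averaged 973, 734 and 1834 reads and those without 418, 127 and 1185. Over the whole region the means were 1875 and 1037. With only fragments that have a GTAC site, peak 1 was the only peak found, with its top at 124.1 kb and 4358 reads per fragment. A window of 17 such fragments covers more ground, and peak 5 was not found in it.

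The mirror region, at the same distances downstream of the bait, covers most of Ikzf1 and reaches through Fignl1 into Ddc, which encode an AAA ATPase and the aromatic amino acid decarboxylase. Its 275 fragments held 269830 reads, 11.7% of the library, with a mean of 981 and a median of 321 per fragment. Reads were found on 91.3% of its fragments (exact 95% interval 87.3% to 94.3%), a larger share than upstream. Among fragments with 2 unique ends the share was 97.2% upstream and 92.9% in the mirror region. With 1 unique end it was 73.3% and 73.7%. The upstream mean was 1.44 times the mirror mean, and 1.90 times as reads per kb, the mirror region having fewer and longer fragments (median 338 against 208.5 bp). With only fragments that have a unique end it was 1.93 times, and with only fragments that have both ends unique 2.10 times. The upstream side was thus higher in each of these ratios of reads, by an amount that depends on how fragments are counted.

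In steps of 5 kb the difference between the sides changed direction with distance. Of 25 pairs of steps at equal distance, the upstream step was at least 2-fold higher in 10 and the downstream step in 6. Over all 296 pairs from 20 kb to 1.5 Mb, these 25 included, the same rules called 31.4% and 14.5%. The 10 of 25 (40%) thus stand little above that share. A step with at least 3 reads was also called where the opposite step had 0. Of the 271 pairs farther out than these 25, 83 were called higher upstream and 37 higher downstream. From 300 kb to 1.5 Mb the median running mean at 17 fragments was 0 on both sides. How much of the share comes from such sparse steps was not counted. The limits of 40 and 95 kb used next were chosen after the values were seen, so the split by distance is a description only. Between 20 and 40 kb the mean was 2248 reads per fragment upstream and 1628 downstream, a ratio of 1.38. Between 40 and 95 kb it was 523 against 1299, a ratio of 0.403, and all 6 steps with a higher downstream level lie there. With fragments that have a unique end this ratio was 0.768, and the steps with a higher downstream level numbered 3. Beyond 95 kb the mean was 2428 upstream and 405 downstream, a ratio of 6.0, with 8 of the 10 pairs at least 2-fold higher upstream.

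**Figure D4:**
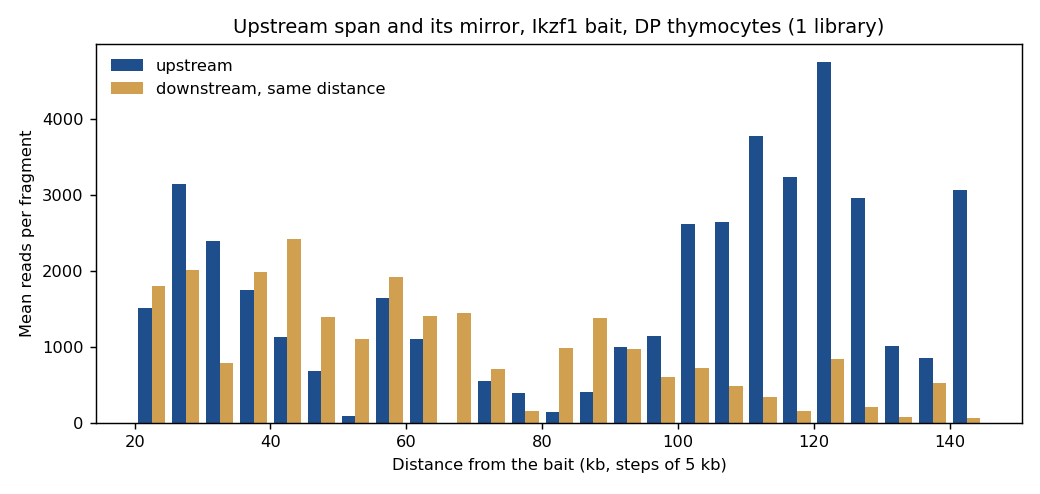
Mean reads per fragment (y-axis) in steps of 5 kb by distance from the Ikzf1 bait (x-axis, kb), upstream and downstream, in 1 DP library; the outermost step is narrower, as the region ends within it. Upstream bars are the taller from 90 kb outward, up to 4744 against 843 at 120 to 125 kb, while downstream bars are the taller from 35 to 90 kb other than at 75 to 80 kb.

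The highest step was that at 120 to 125 kb, with 4744 reads per fragment over 8 fragments, against 843 downstream. Its highest fragment held 36.8% of its reads, and without that fragment the mean was 3426. The steps from 100 to 130 kb ranged from 2611 to 4744 upstream, 3.59 to 20.5 times their mirror steps. At 115 to 120 kb 17 fragments with a mean of 3230 faced 14 with a mean of 158. The largest ratio, 44.3, belonged to the outermost step, which has only 6 fragments on each side and takes 48.7% of its reads from 1 fragment of 8938. Of the 10 steps higher upstream, 9 stayed at least 2-fold higher without their highest fragment, and the exception was the step at 75 to 80 kb, which fell from 392.5 to 130 reads per fragment. No read was counted at 65 to 70 kb, where all 27 fragments lacked a unique end, while the mirror step had 1444 per fragment.

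Compared with its surroundings, the region had the tallest peak between 20 kb and 1.5 Mb from the bait. The highest running mean at 17 fragments was 4709 in it, 2435 in the mirror region, 2124 from the far border to 300 kb upstream and 228 at the same distances downstream. From 300 kb to 1.5 Mb it was 101 upstream and 128 downstream. At 55 fragments the lead over the mirror region was small, with tops of 3614 and 3154, a ratio of 1.15. That top of the mirror region lay at 20.6 kb, at its border toward the bait. The mean of the region was 2.30 times that of the stretch beyond it, out to 300 kb upstream (612 reads per fragment). The upstream side stayed the higher one there, at 9.67 times the downstream mean. In the other DP library, from the promoter of Satb1, which encodes a chromatin organizer of T cells, the same distances held 9.46% and 6.30% of the reads on the higher- and lower-coordinate side. The mean ratio of its sides was 1.30, and its highest running means at 17 fragments were 1607 at 61.0 kb and 3802 at 20.4 kb, the latter at the border toward its bait. These baits differ in locus and depth, and the difference between them was not tested.

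The sequence of the region was searched on both strands for the CTCF core motif and a RUNX site (TGTGGTT), as motifs of factors known at thymocyte enhancers and loop anchors. The CTCF core occurred 2 times in the upstream region and 7 times in its mirror. Per 100 kb this is 1.62 and 5.65, against 4.70 over the chromosome. Most of the mirror matches have an identical core sequence, and whether they are copies of a repeat was not tested. By 5 kb steps, 8.00% of the 25 upstream steps held it, against 19.4% of all 5 kb stretches of chromosome 11. Neither CTCF match of the upstream region overlapped a RUNX match. Of the 2, 1 lay in the Gm11999 peak, near its edge toward the bait, and the other in no peak. They are shown with the core in capitals.
42.2 kb upstream, chr11:11541337-11541349, plus strand, fragment with 367 reads: taaacattCCAAGAGTGGGCAaagttatg
20.7 kb upstream, chr11:11562775-11562787, minus strand, fragment with 2962 reads: ctttcagcCCAGCAGAAGGCAgtaccact
The RUNX site occurred 25 times in the region, in 64.0% of the 5 kb steps against 72.6% of 5 kb stretches of the chromosome. It occurred 4 times in the Gm11998 peak, 1 time in peak 4 and 6 times in the Gm11999 peak, and not in peaks 2 and 3. These are 18.2, 13.1 and 31.7 matches per 100 kb. The rate was 20.2 in the region, 36.3 in the mirror region and 26.8 over the chromosome. These are matches of letters in this window and say nothing of binding.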

How the data were processed

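Reads are given in the deposited files as raw counts, 1 row per DpnII fragment, for the chromosome that carries the bait. The authors removed the primer sequence with Sabre and aligned the remaining 25 nt (length per the labels) to mm9; the submitters' processing notes name Bowtie 1.0.0. The user guide describes a filter on fragments with over 2% of all reads read in; the highest fragment near the Ikzf1 bait holds 5.37% of the reads left in the deposited file, a different total. Duplicates cannot be told from separate ligations, so a few fragments with many copies could raise a running mean.

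Every midpoint matched a DpnII fragment of the mm9 sequence. Ends of 25 nt were counted over all GATC sites of that genome. Running means, peaks, steps and flanks were computed on the raw counts in Python 3.11.15 (pandas 2.3.3, scipy 1.17.1). The peak finder was run on simulated counts with broad peaks. These did not model fragments that lack a unique end, so the run does not bear on the narrow peaks. Genes are those of GENCODE vM1. No test between groups was possible with 1 library.

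The region, gene lists and settings were chosen with earlier results of these data known. Genes named are those annotated in the region and its mirror, the gene of the bait and Satb1, and fragments named by rule are the 3 with the most reads in each peak. Border fragments, short fragments, repeated ends, exon fragments and motif matches were added after their values were seen. Alternatives covered the window, the prominence, the flank width, the fold, the step position, capping, length and the fragments used.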

Additional observations from a re-analysis of the deposited data

How the results depend on the processing

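With 1 library no replicate could be left out. No paired analysis was possible because the Ikzf1 bait has a single library. The depth limits single fragments more than sums, and ligations cannot be told from duplicates. The upstream mean over the mirror mean, 1.44, was 1.27 with only fragments that have a GTAC site, 1.93 with an end found once, 1.85 with only fragments with a read and 1.90 per kb. Chosen after seeing the data, fragments of at least 25 bp gave 1.36 and those with both ends found once 2.10. The 5 peaks became 1 at 55 fragments and 1 with GTAC fragments, and 3 with an end found once, with only fragments with a read, or with both ends found once. The height of the highest peak over its flanks, 2.11, was 2.98 and 2.47 at 31 and 55 fragments, 1.70 and 2.69 with flanks of 5 and 20 kb, 2.00 with GTAC fragments, 2.04 with an end found once and 2.26 with only fragments with a read. It was 2.21 without the fragment with the most reads on each side, 2.97 with fragments of at least 25 bp and 2.64 with both ends found once. That of the peak 60 kb upstream turned below 1 (0.959) with both ends found once. Capping at 14956 reads lies above every fragment of the region and changed none of these values. The 10 steps at least 2-fold higher upstream numbered 9 to 13 over 11 alternatives. The causes of these changes were not tested, other than the fragments and windows that each alternative leaves out or widens.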
